A study of Rattus norvegicus with 6 samples.

Results

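The genes described here are 8 genes of cytokine signalling through Janus kinases (JAK) and STAT transcription factors. They are the suppressors of cytokine signalling Socs1, Socs2 and Socs3, their relative Cish, the kinase Jak2, the transcription factor Stat3, and the kinases Pim1 and Pim3. The set is called the feedback genes below, although Jak2 and Stat3 carry the signal forward. All 8 were chosen by name from this pathway, with earlier results of these data known. Each of the 8 is represented by 1 probe with 1 spot on the array, out of 13876 named genes measured. All 8 were bright enough to test, as were 11001 of the named genes. Heart muscle was taken from male Wistar rats 6 h after surgery and total RNA was hybridised to 1-colour Agilent arrays. In the border zone group (arrays M17, M24 and M25) the left anterior descending coronary artery had been ligated, and the tissue at the border of the infarct was located by a double stain with triphenyltetrazolium chloride and Evans blue. The sham group (C4, C5 and C6) had a sham operation, and its samples are labelled as a control zone. No genetic change or drug is named for either group, and the age of the rats is not given in the sources used here. The series asks which transcripts differ between infarct border and sham myocardium at this time.

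In this pathway, a cytokine such as interleukin 6 binds its receptor, JAK kinases bound to the receptor become active, and they phosphorylate STAT proteins, which enter the nucleus and switch on genes. Among the genes switched on are the SOCS family, whose proteins bind the receptors or the kinases and shut the signal down, so that their transcripts are often used as a readout of recent signalling. PIM kinases are serine/threonine kinases that are active as made, so their amount depends largely on transcription, which STAT factors promote. In the heart, signalling through the shared receptor subunit gp130 and STAT3 is known for its part in survival of cardiomyocytes after injury, and SOCS3 is known as its brake.

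Some arrays stood apart from the others. On the border zone arrays 74.3% to 78.3% of probes were well above background, against 73.7% on C4. The share was 50.9% on C5 and 52.4% on C6. A single scan held M17, M24, M25 and C4, whereas C5 and C6 were each scanned alone. Markers of central nervous tissue, summed over the 11 measured on a linear scale relative to the 75th percentile of each array, came to 1.28 to 1.62 in the border zone, 2.09 in C4, 12.6 in C5 and 16.1 in C6. Array M25 lay between M17 and M24 for 97.5% of the 570 probes with over a 2-fold difference between M17 and M24, and for 70.9% of all tested probes. Choosing probes far apart favours a value in between, so the first share is a description, and no expected share was computed. M25 also lay between M17 and M24 for 8 of the 8 feedback genes, and whether it is a separate animal is in doubt. Values are therefore also given against C4 alone, which equals a fit with scan as a block and holds no spread between sham animals, and without M25. The labels mention 3 rats for each operation, and p-values measure the spread between these arrays. Of the 10 cardiomyocyte markers measured, such as Myh6 and Tnnt2, all were well above background on every array.

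Of the 8 genes, 5 rose in the border zone (Socs3, Cish, Stat3, Jak2 and Pim3), none fell, and 3 did not pass the test (Socs1, Socs2 and Pim1). A gene passed when its limma p, adjusted by the Benjamini-Hochberg method across the 17930 tested probes, was below 0.05. At an unadjusted p below 0.05 the count was 6 higher and 0 lower. Over all tested probes 8.98% rose and 10.3% fell. As the 8 genes were chosen with earlier results of these data known, their count beside these shares is a description only. The median log2 fold change of the 8 genes was 1.31, or 1.24 against C4, beside -0.03 and -0.04 over all tested probes. For 6 of the 8 genes every border zone array lay above every sham array, which held for 20.8% of tested probes. Socs3 and Pim1 are among these 6, and they entered the test through the border zone alone. Each was well above background on only 1 sham array. Of the 5 genes that rose, 4 were well above background on all sham arrays. With arrays centred on their median instead, 67.9% of all called probes were higher in the border zone, against 46.7% here, and the same number of members, 5, rose.

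Socs3, the suppressor that binds gp130 and blocks the JAKs attached to it, rose over all 6 arrays, but its size depended on how dim sham signal was treated. Its normalized log2 signal, which is the log2 signal minus the 75th percentile of the array, was -2.59 in M17, -2.06 in M24 and -2.29 in M25, and -3.90 in C4, -5.60 in C5 and -5.15 in C6. All 3 border zone arrays were above all sham arrays, by a gap of 1.31, and in sham the probe was well above background in C4 only. The log2 fold change was 2.57 ± 0.45 (SE, n = 3 arrays per group, limma adjusted p = 0.0165). With dim arrays raised to the lowest signal well above background on each, it was 1.81, or 3.51-fold (adjusted p = 0.00674), which is below that of Jak2. Against C4, where both sides were measured, it was 3.0-fold (1.59 ± 0.24, limma adjusted p = 0.032), and C4 exceeded the mean of C5 and C6 by 1.48. The call was lost when any 1 border zone array was left out, with limma adjusted p of 0.0522 without M17, 0.069 without M24 and 0.0831 without M25, although the log2 fold change stayed between 2.21 and 3.06 over the 6 arrays left out in turn. It was also lost with normexp background correction, which gave a log2 fold change of 0.57 (adjusted p = 0.127). That correction adds an offset of 50 to each signal, which shrinks the changes of dim probes. The median log2 fold change of all tested probes was then -0.35.

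Cish, the founding member of the SOCS family, is known as a target of STAT5 that acts at receptors for growth hormone, erythropoietin and other cytokines. In the border zone its normalized log2 signal was 1.79 in M17, 1.87 in M24 and 1.81 in M25, and in sham 0.64 in C4, 0.13 in C5 and 0.23 in C6. The border zone arrays lay within 0.08 of each other and 1.15 above the highest sham array, C4. Cish rose 2.8-fold (log2 fold change 1.49 ± 0.16, SE, n = 3, limma adjusted p = 0.00454) and 2.27-fold against C4 (1.18, limma adjusted p = 0.0142). It passed in 16 of the 17 alternative fits. The promoter of Cish is shown because it held the most copies, among the 7 genes with a window to search, of the palindromic STAT motif TTCNNNGAA, which reads the same on both strands. The 250 bases before its RefSeq start in the GRCr8 assembly (chr8:116850719-116850968, plus strand) carry 4 copies, marked by capitals, which begin 241, 230, 136 and 119 bases before the start:

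Cish: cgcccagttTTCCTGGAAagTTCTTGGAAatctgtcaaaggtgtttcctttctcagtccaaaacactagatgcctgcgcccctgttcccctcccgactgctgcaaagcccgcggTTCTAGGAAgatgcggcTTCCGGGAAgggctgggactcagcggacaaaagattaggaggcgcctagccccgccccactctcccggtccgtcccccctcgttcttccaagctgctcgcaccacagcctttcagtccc

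Of 33469 RefSeq windows searched, each from 250 bases before to 50 bases after a start, 8.87% held the motif at least once and 2 windows (0.00598%) held it 4 times or more. Windows were found for 7 of the 8 genes, all but Socs2, and 2 of these 7 held the motif. No copy was present in the windows of Socs3, Stat3, Jak2, Pim1 and Pim3. In the windows of Socs3 and Pim1 the start codon appears to lie within the 50 bases after the stated start. The 250 bases before it may therefore not be the promoter. Sequence further upstream was not searched, so lack of a copy in a window does not show that a gene's promoter has none. A match describes letters in the window and is no measurement of binding.

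Socs1, a brake on interferon signalling that inhibits the JAK kinases directly, did not pass the test. The normalized log2 signal of Socs1 was -1.02, -1.41 and -1.30 in M17, M24 and M25, and -0.79, -1.52 and -1.73 in C4, C5 and C6. The groups overlapped, with C4 the highest of the 6 arrays. The log2 fold change was 0.10 ± 0.27 (95% interval -0.57 to 0.77, limma adjusted p = 0.814, n = 3). Against C4 it was -0.46 (limma adjusted p = 0.173), so its sign differed with the sham arrays used. Its promoter is shown for comparison with Cish. The 250 bases before its start (chr10:5389324-5389573, plus strand, GRCr8) carry 1 copy of the motif, in capitals, which begins 196 bases before the start:

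Socs1: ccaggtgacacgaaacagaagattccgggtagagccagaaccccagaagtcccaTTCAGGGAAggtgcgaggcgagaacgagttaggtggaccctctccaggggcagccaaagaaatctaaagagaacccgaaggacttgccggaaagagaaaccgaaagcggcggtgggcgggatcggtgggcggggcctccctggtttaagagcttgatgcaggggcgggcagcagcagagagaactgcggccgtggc

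Socs2, a brake on growth hormone signalling, did not pass either. For Socs2 the normalized log2 signal was -2.93, -3.09 and -3.06 in M17, M24 and M25, and -3.19, -3.18 and -2.89 in C4, C5 and C6. All 6 arrays lay close together, well above background, and the highest of them was sham C6. The log2 fold change was 0.06 ± 0.13 (95% interval -0.26 to 0.38, limma adjusted p = 0.757, n = 3), which leaves room for a change of up to 1.31-fold upward at the upper end of that interval. It was 0.17 against C4 and -0.35 with normexp correction, where the median of all tested probes was also -0.35.

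**Figure D1:**
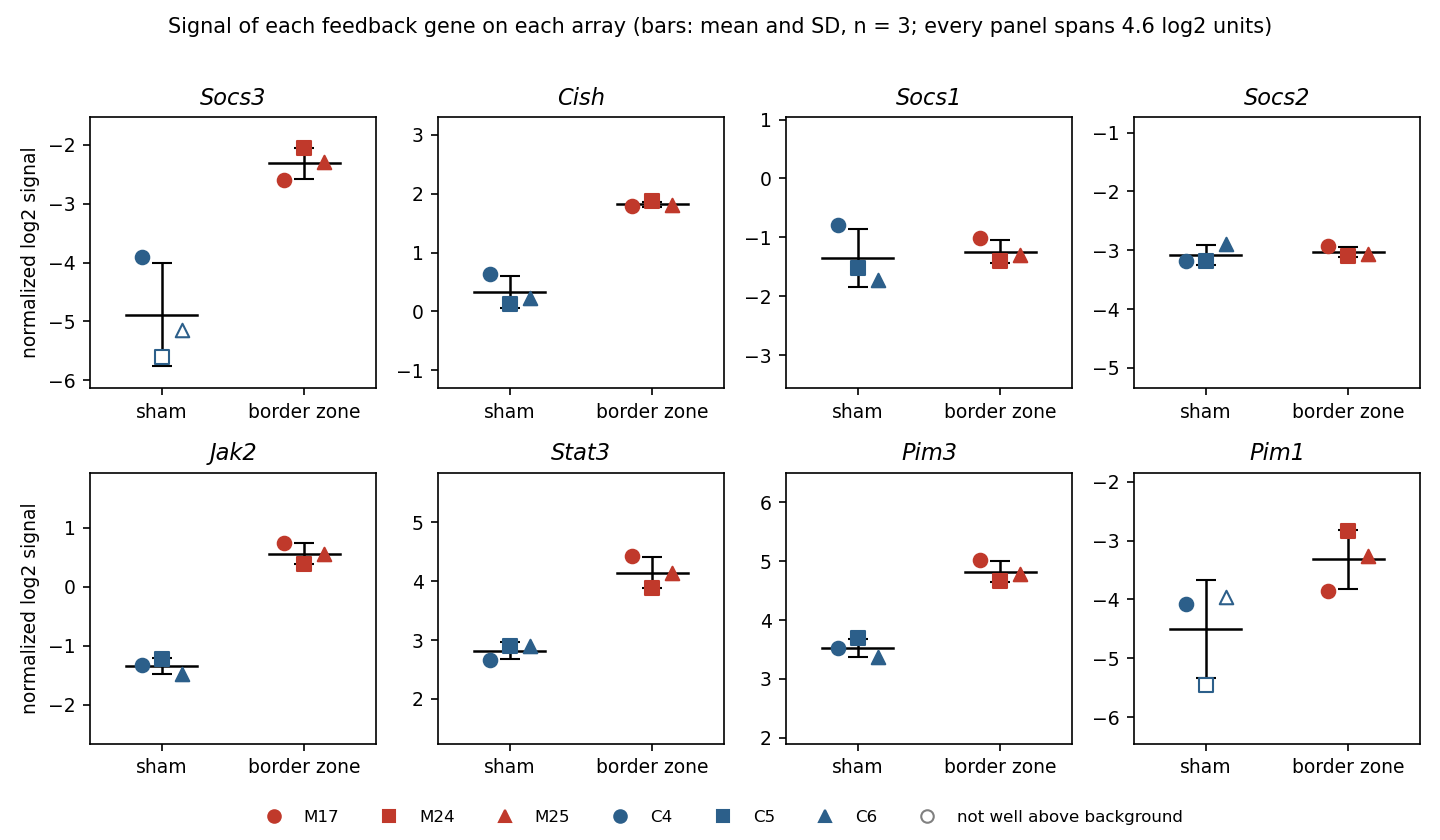
Normalized log2 signal (y axis, log2 signal minus the 75th percentile of the array) of each of the 8 genes in sham (blue) and border zone (red); symbols are single arrays, hollow where the probe was not well above background, and bars are the mean and SD of 3 arrays. The groups are apart for Socs3, Cish, Jak2, Stat3 and Pim3, with a gap of only 0.11 for Pim1, and overlap for Socs1 and Socs2.

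Jak2, a receptor-bound kinase that starts the signal for growth hormone, erythropoietin and, with its relatives, gp130 cytokines, had the smallest p of the 8. On the same scale Jak2 stood at 0.75 in M17, 0.39 in M24 and 0.55 in M25, and -1.33 in C4, -1.22 in C5 and -1.48 in C6. The gap of 1.61 between the groups was wider than for any other of the 8 genes, and the sham arrays from different scans lay within 0.26 of each other. Jak2 rose 3.75-fold (log2 fold change 1.91 ± 0.14, SE, n = 3, limma adjusted p = 0.00184). Against C4 the rise was 3.71-fold (limma adjusted p = 0.0166) and without M25 it passed too (adjusted p = 0.0247). Among the 11936 probes well above background on all 6 arrays it ranked 191 by log2 fold change.

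Stat3, the transcription factor that gp130 cytokines activate and that promotes its own gene, was higher on every border zone array. Its normalized log2 signal was 4.42 in M17, 3.88 in M24 and 4.14 in M25, and 2.66 in C4, 2.90 in C5 and 2.90 in C6. The lowest border zone array was 0.98 above the highest sham array. Stat3 rose 2.51-fold (log2 fold change 1.33 ± 0.17, SE, n = 3, limma adjusted p = 0.00733) and 2.81-fold against C4 (limma adjusted p = 0.0354). Without M25 the log2 fold change was again 1.33, but the limma adjusted p of 0.0558 no longer passed. The transcript level says nothing on phosphorylation of the protein, which was not measured here.

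Pim3, a kinase that promotes growth and survival, was well above background on all arrays. Pim3 had a normalized log2 signal of 5.02 in M17, 4.66 in M24 and 4.79 in M25, and 3.52 in C4, 3.69 in C5 and 3.38 in C6. The groups were 0.97 apart, and the SD was 0.18 in the border zone and 0.16 in sham. Pim3 rose 2.45-fold (log2 fold change 1.29 ± 0.15, SE, n = 3, limma adjusted p = 0.0053), 2.46-fold against C4 (limma adjusted p = 0.0277), and kept its call without M25 (adjusted p = 0.0457).

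Pim1, the relative best known as a STAT3 and STAT5 target, was dim. Its normalized log2 signal was -3.85 in M17, -2.84 in M24 and -3.27 in M25, and -4.08 in C4, -5.46 in C5 and -3.96 in C6. The groups did not overlap, but only by 0.11, and sham was well above background in C4 only. The log2 fold change was 1.18 ± 0.47 (95% interval 0.02 to 2.34, limma adjusted p = 0.132, n = 3), and it did not pass the test. It was 0.86 with dim arrays raised to the lowest signal well above background (adjusted p = 0.0868), 0.76 against C4 (adjusted p = 0.278) and -0.05 with normexp correction.

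**Figure D2:**
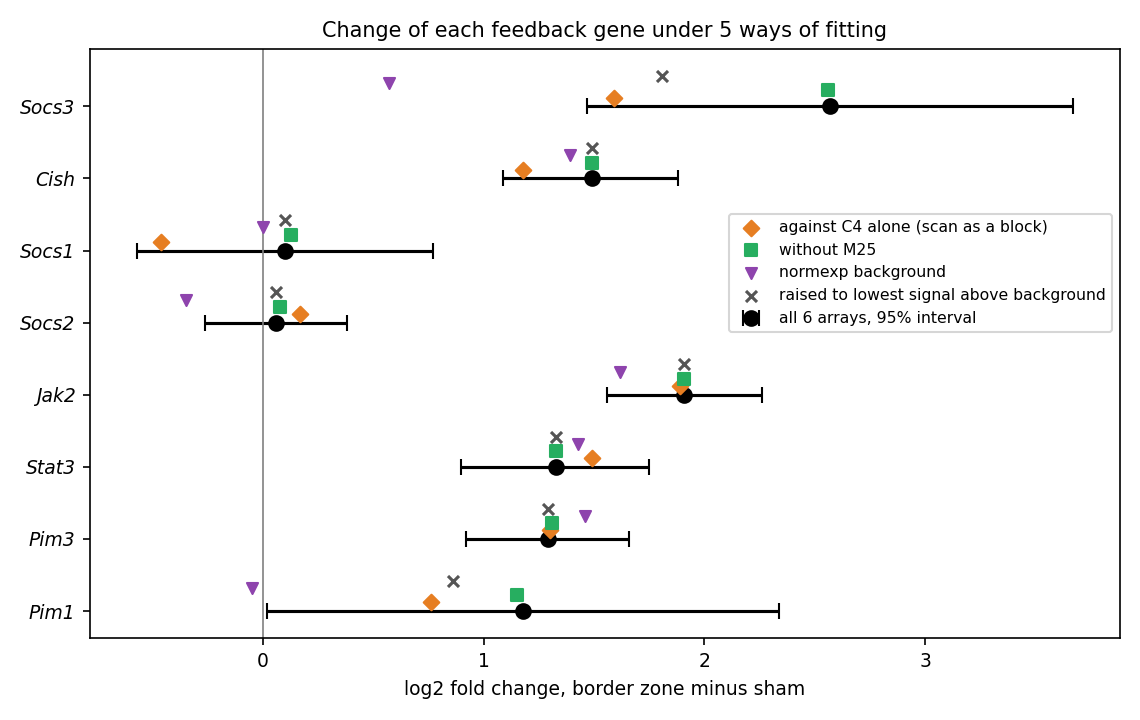
Log2 fold change, border zone minus sham (x axis), of each of the 8 genes with all 6 arrays (black circles, bars are 95% intervals) and in 4 alternative fits (coloured symbols). Jak2, Stat3, Cish and Pim3 stay between 1.18 and 1.91 in each, Socs3 ranges from 0.57 to 2.57, and Socs1, Socs2 and Pim1 have values on both sides of 0.

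How many of the 8 genes rose depended on the arrays used. Against C4 alone the same 5 genes rose, where 8.4% of all tested probes did. With dim arrays raised to the lowest signal well above background, the same 5 rose, against 7.99% of all. With normexp correction 4 rose, all but Socs3, against 5.62% of all. Without M17 or without M24 4 rose, again all but Socs3, where 3.9% and 3.04% of all probes did. Without M25 3 rose, namely Cish, Jak2 and Pim3, against 1.6% of all. Leaving out C4, C5 or C6 kept all 5, against 20.9%, 3.7% and 6.61% of all tested probes. With both M25 left out and scan as a block, a fit with 1 residual degree of freedom that was added after the data were seen, none of the 8 passed limma, 5 of 8 had an unadjusted p below 0.05, and 0.407% of all probes rose. In that fit the log2 fold changes were 1.90 for Jak2, 1.57 for Socs3, 1.49 for Stat3, 1.32 for Pim3 and 1.19 for Cish.

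**Figure D3:**
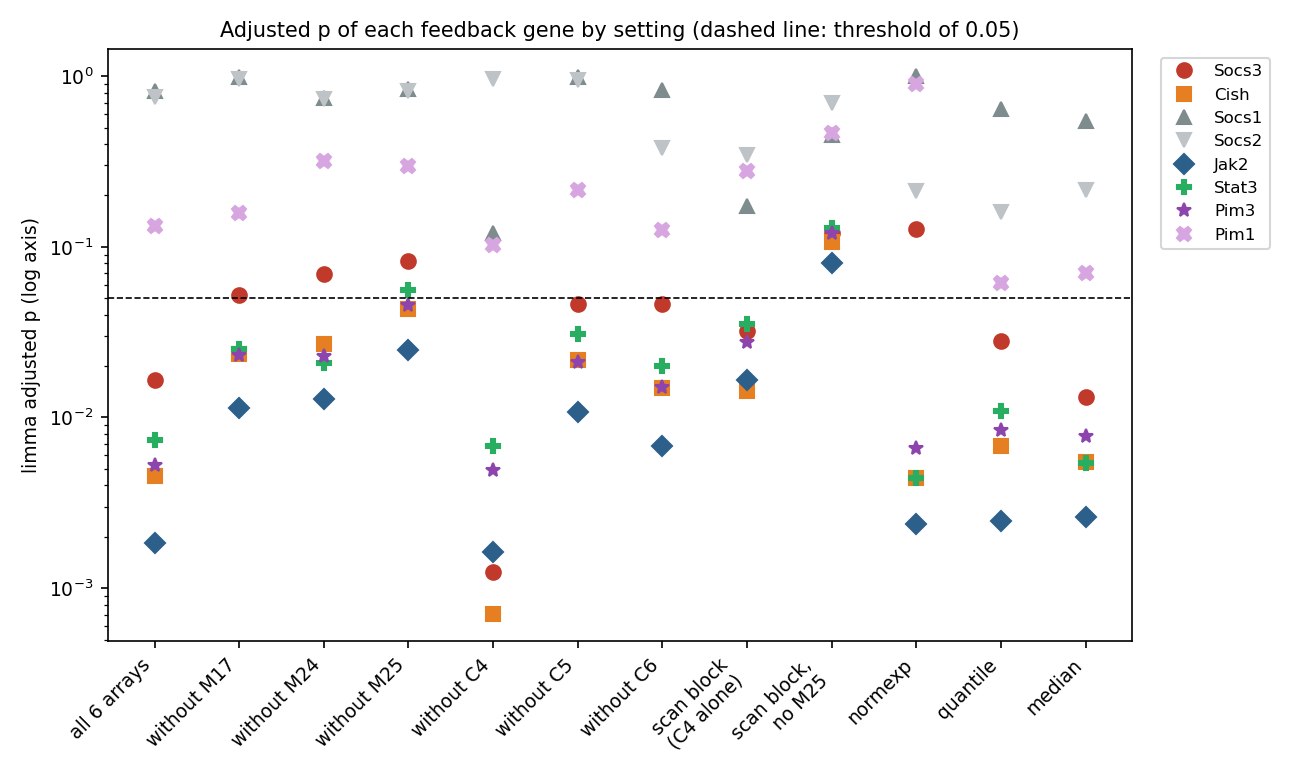
Limma adjusted p (y axis, log scale) of each of the 8 genes with all 6 arrays and in 11 alternative fits (x axis); the dashed line is the threshold of 0.05. Jak2, Cish and Pim3 lie below the line in all but the fit with scan as a block and without M25, Socs3 lies above it in that fit, when a border zone array is left out and with normexp, Stat3 in that fit and without M25, and Socs1, Socs2 and Pim1 stay above it throughout.

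Relatives of the pathway were compared within each array, where scaling cannot move the difference of 2 probes. These 4 pairs were chosen after the data were seen, and only the change of the difference between groups is read, since signals of different probes are not comparable as levels. The difference of Socs3 minus Socs1 changed by 2.05 on the log2 scale against C4, where both probes were well above background. Over all sham arrays the change was 2.47, without overlap, but there C5 and C6 carry Socs3 signal not well above background. Cish minus Socs2 changed by 1.42 (1.01 against C4), also without overlap. Jak2 minus Jak1, its relative at gp130, went from -1.77, -1.80 and -1.87 in C4, C5 and C6 to 0.49, 0.34 and 0.31 in M17, M24 and M25, a change of 2.19. For each of these 3 pairs the two-sided exact permutation p was 0.1, the smallest that 3 against 3 arrays allow, and 0.133 after adjustment over the 4 pairs, so none passed. Pim3 minus Pim1 changed by 0.54 against C4. Over all sham arrays it changed by 0.11 and overlapped (exact permutation p = 0.9), with Pim1 not well above background in C5 and C6.

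Upstream of these genes, 3 of the 7 tested ligands that act through JAK and STAT rose and none fell, by limma (unadjusted p below 0.05: 3 higher, 0 lower). Il6, the best known cytokine that signals through gp130, rose by 8.16 ± 0.64 on the log2 scale (limma adjusted p = 0.00196). With dim arrays raised the rise of Il6 was at least 139-fold. Its probe rose above background throughout the border zone and on no sham array. Csf3, the growth factor of granulocytes, rose 3.96-fold (1.99 ± 0.41, adjusted p = 0.0255), and Cntf, a gp130 ligand of nerve, rose 1.63-fold (0.70 ± 0.16, adjusted p = 0.0326). Without M25 only 1 of these ligands, Il6, kept its call (adjusted p = 0.0237). The calls of Csf3 (1.15, adjusted p = 0.0612) and Cntf (0.55, adjusted p = 0.151) were also lost against C4, and that of Cntf with normexp correction (0.30, adjusted p = 0.198). Lif, Osm and Lep were too dim to test.

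Of the 11 tested receptors, 6 rose, 2 fell and 3 did not pass, and without M25 5 rose and 1 fell. The 2 that fell were the receptors for erythropoietin, Epor, and growth hormone, Ghr. Their log2 fold changes were -1.35 ± 0.13 (limma adjusted p = 0.00377) and -0.46 ± 0.11 (adjusted p = 0.0374). Without M25 Ghr did not pass (adjusted p = 0.182). Csf3r, the receptor for Csf3 and a neutrophil marker, rose (log2 fold change 3.82 ± 0.13, limma adjusted p = 0.000435, 6.23-fold with dim arrays raised), but did not pass with normexp correction (0.98, adjusted p = 0.0941). Il4r, a receptor subunit for interleukins 4 and 13, rose 3.16-fold (1.66 ± 0.11, adjusted p = 0.00132). Osmr, the oncostatin M receptor that pairs with gp130, rose 2.81-fold (1.49 ± 0.17, adjusted p = 0.00484), but did not pass with normexp correction either (0.36, adjusted p = 0.211). Both were well above background on 1 of 3 sham arrays. The probe for Il6st, which encodes gp130 itself, was below background on all 6 arrays and was not tested. A probe below background does not show that the transcript was absent.

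The other kinases and factors of the pathway that were tested did not follow Jak2 and Stat3 past the threshold. Tyk2 was not measured, and in sham Stat5b and Stat6 were well above background on only 1 array each. Of the 8 other JAK and STAT genes tested, none rose or fell by limma (unadjusted p below 0.05: 1 higher, 1 lower), with a median log2 fold change of -0.06, or -0.09 against C4. Of the other SOCS genes, Socs5, which acts on epidermal growth factor and interleukin 4 signalling, rose 1.91-fold (0.93 ± 0.14, limma adjusted p = 0.00999), and Socs4 did not pass (0.71 ± 0.19, adjusted p = 0.051). Without M25 Socs5 did not pass either (adjusted p = 0.0751).

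Brakes outside the SOCS family went both ways, with 3 of 9 higher, 2 lower and 4 not past the threshold. Without M25 1 rose and none fell by limma, and against C4 4 rose and 1 fell. The phosphatases Ptpn2 and Ptpn1, which remove phosphate from JAK and STAT proteins, rose 2.47-fold (1.31 ± 0.14, limma adjusted p = 0.00446) and 2.09-fold (1.07 ± 0.15, adjusted p = 0.00902). Pias3, an inhibitor of DNA binding by STAT3, fell by 0.79 ± 0.11 on the log2 scale (adjusted p = 0.00977). Without M25 Ptpn2 kept its call (adjusted p = 0.0431), whereas Ptpn1 (0.066) and Pias3 (0.0815) did not pass.

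Of 20 tested textbook targets of STAT3, 12 rose, 2 fell and 6 did not pass, with a median log2 fold change of 1.85, or 1.90 against C4. Of the 12 that rose, 10 were well above background on all sham arrays. This list, too, was chosen with earlier results of these data known. Without M25 7 rose and 1 fell, and against C4 10 rose and 1 fell. Reg3b, a secreted lectin known from injured heart and gut, rose by 6.28 ± 0.50 on the log2 scale (limma adjusted p = 0.00216). With dim arrays raised its rise was 74.6-fold. Hp, the haemoglobin-binding acute phase protein haptoglobin, rose by 5.06 ± 0.35 on the log2 scale (limma adjusted p = 0.00156), and 31.2-fold with dim arrays raised. Myc, a transcription factor of growth, rose 20.8-fold (4.38 ± 0.11, limma adjusted p = 0.000373). The 2 targets that fell were Ccnd1, a cyclin of the cell cycle (by 2.50 on the log2 scale), and Vegfa, an angiogenic growth factor (by 0.81). Vegfa did not pass without M25 (adjusted p = 0.132) or against C4 (0.0909). Of 5 tested targets of STAT5 and growth hormone, 2 rose, Bcl6 (1.44 ± 0.24, adjusted p = 0.014) and Igfals (0.80 ± 0.18, adjusted p = 0.0335), and none fell (unadjusted p below 0.05: 2 higher, 0 lower). Without M25 neither passed (adjusted p = 0.0777 and 0.144). Against C4 Bcl6 rose, Igfals did not pass (adjusted p = 0.0539), and Igf1 (-0.79, adjusted p = 0.0317) and Ccnd2 (-0.86, adjusted p = 0.0289) fell. Many of these targets also answer to other factors.

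**Figure D4:**
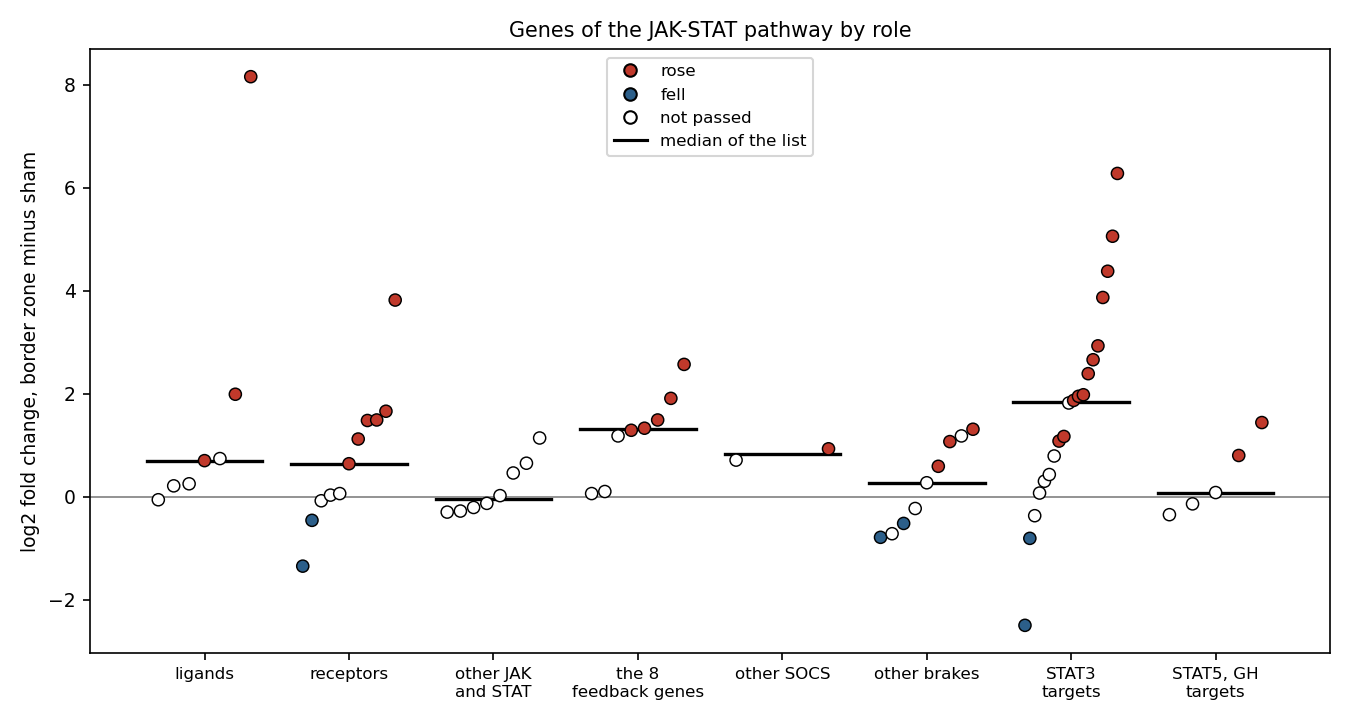
Log2 fold change, border zone minus sham (y axis), of each tested gene of the pathway, grouped by role (x axis); red and blue circles passed the test, white ones did not, and bars are the median of a list. The feedback genes have a median of 1.31 and the other JAK and STAT genes one of -0.06, and Il6 lies highest among the ligands at 8.16.

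Markers of several other cell types differed between the groups along with these genes. Of 9 tested neutrophil markers 7 rose, but only 1 of these, S100a8, was well above background on all sham arrays (log2 fold change 5.21 ± 0.43, limma adjusted p = 0.00229). The others entered the test through the border zone alone. Without M25 4 rose, and with normexp correction only S100a8 did. The summed linear signal of the 10 measured was 5.14 to 5.41 in the border zone against 0.381 to 0.692 in sham, where 4 of 10 were below background on all arrays. In the border zone most of this sum came from S100a8. Of 11 tested monocyte and macrophage markers 5 rose and 1 fell, with sums of 65.6 to 68.3 against 26.2 to 36.6. Most of the border zone sum came from 1 marker, Lyz2. Only 3 of the 5 that rose were well above background on all sham arrays. Clec4e and Itgam entered the test through the border zone alone, and with normexp correction 3 rose. The 11 markers had a median log2 fold change of 0.86, or 0.28 against C4. Without M25 3 of the 11 rose and none fell. Of 6 tested fibroblast markers 1 rose and 2 fell (sums 67.3 to 79.4 against 96.4 to 124), and of 4 endothelial markers 1 fell (10.4 to 13.2 against 15 to 17). Without M25 no fibroblast or endothelial marker fell by limma, and 1 fibroblast marker rose. None of 10 cardiomyocyte markers passed limma (unadjusted p below 0.05: 0), with sums of 653 to 748 in the border zone and 706 to 906 in sham. The part of these cell types in the rise of the feedback genes was not tested. In bulk tissue, fewer cells of a type and less RNA per cell cannot be told apart. The central nervous markers were high in C5 and C6 and not in C4, and against C4 Jak2, Socs3, Stat3, Pim3 and Cish had log2 fold changes of 1.89, 1.59, 1.49, 1.30 and 1.18. Of these 5, Socs3 moved most, from 2.57 over all sham arrays.

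The genes whose profile over the 6 arrays was most like that of Socs3, by Pearson correlation among 10993 named genes, were Shank2 (r = 0.9979), Mrpl54 (0.9978), Gtf2f2 (0.9972), Ppp1r14b (0.9972) and Lyve1 (0.9968). Each of these 5 had C4 as its highest and C5 as its lowest sham array, as Socs3 had. In C5 and C6, however, Socs3 was not well above background, and Shank2 was well above background on only 1 sham array. Shared regulation was not tested. The correlations rest on only 6 arrays in 2 groups, and 519 of the 10993 genes exceeded 0.95. These 5 genes are given as a description only. Their log2 fold changes ran from 0.45 (Ppp1r14b) to 1.43 (Shank2).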

How the data were processed

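Spot signals are intensity values from Agilent Feature Extraction 11.0.1.1, per the file headers and the submitters' processing notes, with background subtracted and no scaling between arrays. Flags for spots (another kind of value) were used as deposited. The authors' value table, on the log2 scale, served as an alternative. Its columns have medians of 5.53 to 5.54, it was treated as quantile-normalized, and how it was made is not given in the sources used here.

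Control and outlier spots were left out. Log2 signal minus each array's 75th percentile was fitted with limma 3.58.1 (lmFit, eBayes, two-sided) in R 4.3.3, with Benjamini-Hochberg adjustment over 17930 of 24614 usable probes. A probe was tested if every array of either group had it well above background. This held in the border zone for 17894 and in sham for 11972, so rises from dim sham signal were tested more often than falls. No spot was saturated. A gene is its brightest probe. Exact permutation tests were run with scipy 1.17.1. Probes were named by unversioned RefSeq accession. The array headers name the rn4 build, and coordinates and promoters printed are RefSeq's for GRCr8. The fit was tested on simulated data.

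The members and lists were chosen with earlier results of these data known. Named are all members, up to 3 passing genes of each pathway list by size of change (the smallest p where none passed), and the 5 genes most like Socs3. The gene taken for the other JAK and STAT genes is not reported here. Jak1, Tyk2, Stat5b, Stat6, Socs4, Il6st, Epor, Ghr, Lif, Osm, Lep, Vegfa, Igf1, Ccnd2 and the marker genes were named outside that rule. Alternatives changed scaling, background, filter, floor, source, scan block, eBayes settings, outlier spots and the arrays used. The number of arrays limits the precision.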

Additional observations from a re-analysis of the deposited data

How the results depend on the processing

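Over all tested probes 3451 passed. Without the filter on dim probes 1824 did, with scan as a block and M25 left out 86 did, and over the arrays left out in turn the count ran from 510 (without M25) to 7288 (without C4). Without M17 it was 1441, without M24 1164 and without C5 1413. Of the 8 feedback genes 5 passed, 3 to 5 with 1 array left out, and 0 by limma with scan as a block and M25 left out, where 5 had an unadjusted p below 0.05. No feedback gene that passed changed sign in any alternative run. Over its alternatives the log2 fold change ran from 1.62 to 2.10 for Jak2, 1.18 to 1.68 for Cish, 1.19 to 1.52 for Stat3, 1.13 to 1.48 for Pim3 and 0.57 to 3.06 for Socs3. The adjusted p ran from 0.000401 to 0.0799, 0.000706 to 0.106, 0.00217 to 0.129, 0.00136 to 0.121 and 0.00124 to 0.127 for the same genes. The causes were not tested. Over all tested probes the median change on the log2 scale was -0.03. It was 0.17 with median scaling, 0.09 with quantile scaling, -0.19 with the floor, -0.26 without the filter and -0.35 with normexp. All changes given with normexp, such as those of Socs3, Socs2 and Pim1, are to be read against that last value. Normexp used an offset of 50, and the median spot signal in place of the mean signal that was planned. Averaging all probes of a gene was not run, because each of the 8 genes has 1 probe. No paired analysis was possible because the groups share no replicate numbers. Signal over background limits Socs3 and Pim1 in sham.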
